A study of Mus musculus with 8 samples.

Results

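The T cell receptor signalling and costimulation module was described as 40 genes fixed by name, from the CD3 chains and CD4 through costimulatory receptors, kinases, adaptors and transcription factors to the phosphatases and other brakes of the pathway. Of these, 39 had a probe set annotated with that symbol alone, among 19938 genes in all, and Lck was not analysed here. Each of the 39 was read by 1 probe set, the one with the highest mean over the arrays where a gene had several. RNA was measured on 8 Affymetrix whole-transcript arrays in mouse T helper cells, with 2 arrays, called biological replicates, in each of 4 groups. Wild-type Th1 and wild-type Th17 cells came from Tet2(f/f) mice, which carry floxed Tet2 without Cre. Tet2-deficient Th1 and Tet2-deficient Th17 cells came from CD2(Cre)Tet2(f/f) mice, in which Cre is expressed under CD2 sequences. Cd2 is itself a module gene. All 4 groups therefore carried the floxed allele, and only the Tet2-deficient groups carried Cre. The age of the mice, the culture conditions and whether animals were pooled are not given in the sources used here. Tet2 oxidizes methylated cytosine in DNA, and the series asks how it takes part in the differentiation of T helper subsets.

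Signalling starts when the antigen receptor, held in the membrane with the CD3 chains and the zeta chain (Cd247), meets peptide on an MHC molecule and Src family kinases phosphorylate its tails. Zap70 then docks and phosphorylates the scaffolds Lat and Lcp2, which recruit phospholipase C gamma (Plcg1) with the help of Tec family kinases such as Txk and Tec. Diacylglycerol made by this enzyme and the calcium signal that follows its activity drive NFAT, Ras and protein kinase C theta (Prkcq). The last of these feeds the Bcl10 and Malt1 bridge to NF-kB. Phosphatases, ubiquitin ligases and diacylglycerol kinases set the limits of the signal, and costimulatory receptors such as Cd28 and Icos add to it.

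Within this module the genes of the CD3 chains, the zeta chain and CD4 did not differ detectably between Th1 and Th17 cells, while a group of kinases and adaptors just inside the membrane did. The module holds no gene of the antigen-binding chains of the receptor. Txk, Tec, Skap1, Fyb, Themis, Grap2, Icos, Malt1, Plcg1 and Nfatc3 were called higher in Th17 than in Th1 cells in both genotypes, and the phosphatase gene Ptpn6 was called lower in both. These 10 and 1 of the 39 stand beside 5.12% of all genes called in both genotypes in the same direction. Only the calls of Txk, Tec, Skap1, Fyb and Themis held in both genotypes in all 19 alternative settings. The largest difference was that of Txk, 3.82-fold in wild-type and 3.72-fold in Tet2-deficient cells. Between genotypes none of the 39 genes passed the threshold in either subset, beside 0.00502% of all genes in Th1 and 0% in Th17 cells. The largest genotype difference was a 1.67-fold lower signal of Themis in Tet2-deficient Th1 cells, which did not pass.

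The series is about DNA methylation, which falls mainly on the cytosine of CG pairs. The sequence at the start of 4 called genes, chosen by the role of the protein in the module, is therefore shown, with every CG in capitals. These are the 250 bases before the most upstream start held for each gene in the promoter set used here. The assembly is GRCm38.p6, and they are read 5′ to 3′ along the strand of the gene. The windows of Themis and Ptpn6 border the annotated span of the gene. Those of Txk and Tec lie mostly inside it, since these spans reach to 72752992 and 72868654.
Txk, chr5:72752778-72753027, minus strand: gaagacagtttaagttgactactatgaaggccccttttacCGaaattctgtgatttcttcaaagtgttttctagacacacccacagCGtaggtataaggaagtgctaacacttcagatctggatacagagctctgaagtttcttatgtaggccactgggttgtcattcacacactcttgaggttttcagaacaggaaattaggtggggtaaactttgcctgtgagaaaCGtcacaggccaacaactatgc
Tec, chr5:72868449-72868698, minus strand: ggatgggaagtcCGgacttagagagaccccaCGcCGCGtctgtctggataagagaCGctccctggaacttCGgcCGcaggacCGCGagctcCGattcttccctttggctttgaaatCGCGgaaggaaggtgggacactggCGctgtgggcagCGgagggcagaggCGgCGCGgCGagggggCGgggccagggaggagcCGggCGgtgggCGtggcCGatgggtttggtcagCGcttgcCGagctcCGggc
Themis, chr10:28668110-28668359, plus strand: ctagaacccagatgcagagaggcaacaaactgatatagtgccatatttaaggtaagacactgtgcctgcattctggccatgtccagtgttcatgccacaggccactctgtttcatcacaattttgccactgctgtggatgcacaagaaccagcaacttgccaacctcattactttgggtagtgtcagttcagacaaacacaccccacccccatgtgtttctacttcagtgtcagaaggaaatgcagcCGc
Ptpn6, chr6:124738710-124738959, minus strand: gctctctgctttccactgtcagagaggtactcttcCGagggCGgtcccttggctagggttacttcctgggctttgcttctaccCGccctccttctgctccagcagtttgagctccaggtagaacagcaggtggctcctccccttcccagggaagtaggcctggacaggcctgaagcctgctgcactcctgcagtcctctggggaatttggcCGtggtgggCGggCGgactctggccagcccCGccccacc
Txk and Tec lie next to each other with no protein-coding gene between them, and both were called higher in Th17 cells. Their windows, both mostly inside the annotated gene, differed widely in CG content, with 3 CG pairs for Txk and 26 for Tec. The window before Themis held 1 and that before Ptpn6 held 7. A start in the promoter set was matched for 30 of the 39 genes, and how many other windows overlap a gene span was not tested. The 9 matched genes called higher in Th17 cells in either genotype had a median of 6 CG pairs per window, with a range of 1 to 26. The median was 6.5 over the 20 matched genes not called and 6 over all 27025 genes with a window. At most 5 CG pairs were found in 4 of the 9, in 9 of the 20 and in 49.5% of all windows. The ROR half-site AGGTCA, searched on both strands, occurred in the windows of Dgka and Grap2 among the 9, in 2 of the 20 and in 13.8% of all windows. No window of the 30 genes held the T-box letters AGGTGTGA (1.14% of all windows), the Runx letters TGTGGT (14.2%) or the AP-1 letters TGANTCA (6.85%). The STAT letters TTCNNNGAA were found in the windows of Cd3d and Rasgrp1 (7.14% of all windows). The search was for exact letters, and no methylation or binding was measured in the files used here.

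The markers of the subsets differed in part as labelled. The Th17 genes Il17a, Il17f, Il23r, Rora and Ccr6 were all called higher in Th17 cells, while the Th1 gene Tbx21 read 10.20 to 10.44 on the Th1 and 6.92 to 7.85 on the Th17 arrays. Ifng read 10.18 to 11.84 on the Th1 and 5.92 to 6.03 on the Th17 arrays. Of the 6 Th1 markers 3, the third being Il12rb2, were called lower in Th17 cells in each genotype. Cxcr3 and Stat4 were not called, and Il18r1 was called higher in Tet2-deficient Th17 cells (0.87), beside 0.27 in wild-type cells. Median signals lay between 6.53 and 6.61 on all 8 arrays, and replicates correlated over genes at a Pearson r of 0.990 to 0.994, where genes are no replicates of each other. Tet2 itself read between 7.98 and 8.51 on all arrays, and because its probe set need not cover the floxed exons this checks no label. The sex of the RNA differed among the Th17 arrays and between the subsets. Sex is therefore partly confounded with subset in the comparisons of Th17 with Th1 cells, and more so in Tet2-deficient cells. On a linear scale from the lowest signal of Xist, a transcript of female cells (0%), to the highest (100%), the Th1 arrays lay at 0.236% or less. The wild-type Th17 arrays lay at 0.317% and 43.0%, and the Tet2-deficient Th17 arrays at 14.8% and 100%, and on the last of these the Y-linked gene Eif2s3y read 4.33, beside 8.46 to 9.65 on the others. Of the 6 markers of natural killer cells, Nkg7 and Eomes were higher on every Th1 array, and the summed linear signal of the list was 2169 to 3196 in Th1 and 355.7 to 508.5 in Th17 cells. Klrd1 of that list went the other way, with 5.70 to 5.97 on the Th1, 6.30 and 6.51 on the wild-type Th17 and 7.25 and 8.07 on the Tet2-deficient Th17 arrays, and was called in Tet2-deficient cells (1.73). Ncr1, Klrb1c and Klra8 lay under the median gene on every array. The measured markers of macrophages (6 of 6) and dendritic cells (5 of 5) did so too, as did 3 of the 6 markers of B cells. The summed signal of Cd8a and Cd8b1 was 158 to 186.9 in Th1 and 145.8 to 158 in Th17 cells. The part of other cells in the differences below was not tested. In bulk RNA, fewer cells of a type and less RNA per cell cannot be told apart.

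**Figure D1:**
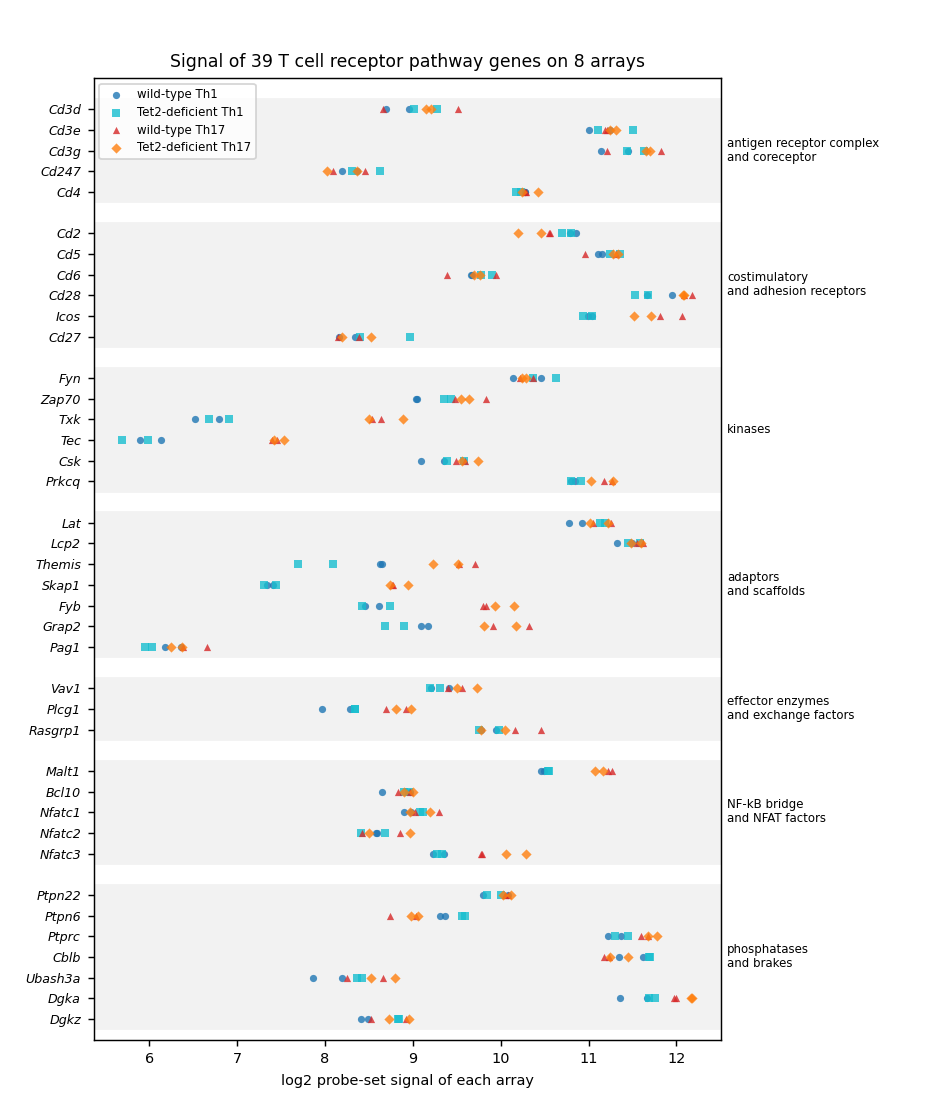
Log2 probe-set signal (horizontal axis) of the 39 module genes (rows, grouped by role) on the 8 arrays, with 1 symbol per array and the shape and colour giving the group. The Th17 symbols of Txk, Tec, Skap1 and Fyb stand clear to the right of the Th1 symbols in both genotypes, while those of Cd3e and Cd5 are interleaved. Signals of different genes come from different probes and cannot be set against each other.

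Differences between subsets were tested with limma on all 8 arrays, with Benjamini-Hochberg adjustment over the 19938 genes and a call at an adjusted p under 0.05. In wild-type cells 13 of the 39 genes were called, 12 higher and 1 lower in Th17 cells, which is 33.3% of the module against 8.4% of all genes (4.97% higher and 3.44% lower). In Tet2-deficient cells 12 were called, 11 higher and 1 lower, or 30.8% against 10.1% (6.32% higher and 3.79% lower). At an unadjusted p under 0.05 the module had 20 genes in wild-type cells, beside 24.5% of all genes, and 19 in Tet2-deficient cells, beside 24.8%. The arrays of the subsets did not overlap for 27 of the 39 in wild-type cells (52.2% of all genes) and for 26 in Tet2-deficient cells (57.5%). Among genes at or above the median signal, which holds 38 of the 39, the calls were 13 in wild-type and 14 in Tet2-deficient cells, beside 15.7% and 19.1% of such genes. In both genotypes and in the same direction, 11 of the 39 genes were called, against 5.12% of all genes. The median log2 fold change of the module, Th17 minus Th1, reached 0.27 for wild-type and 0.17 for Tet2-deficient cells, beside -0.03 in each over all genes. After repeated quantile normalization these medians were 0.18 and 0.06, with 12 and 16 of the 39 below 0 in place of 6 and 10, and without Tet2-deficient Th17 replicate 1 the Tet2-deficient median was 0.11. Each log2 fold change is followed, after ±, by its standard error, and every group has n = 2 arrays.

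**Figure D2:**
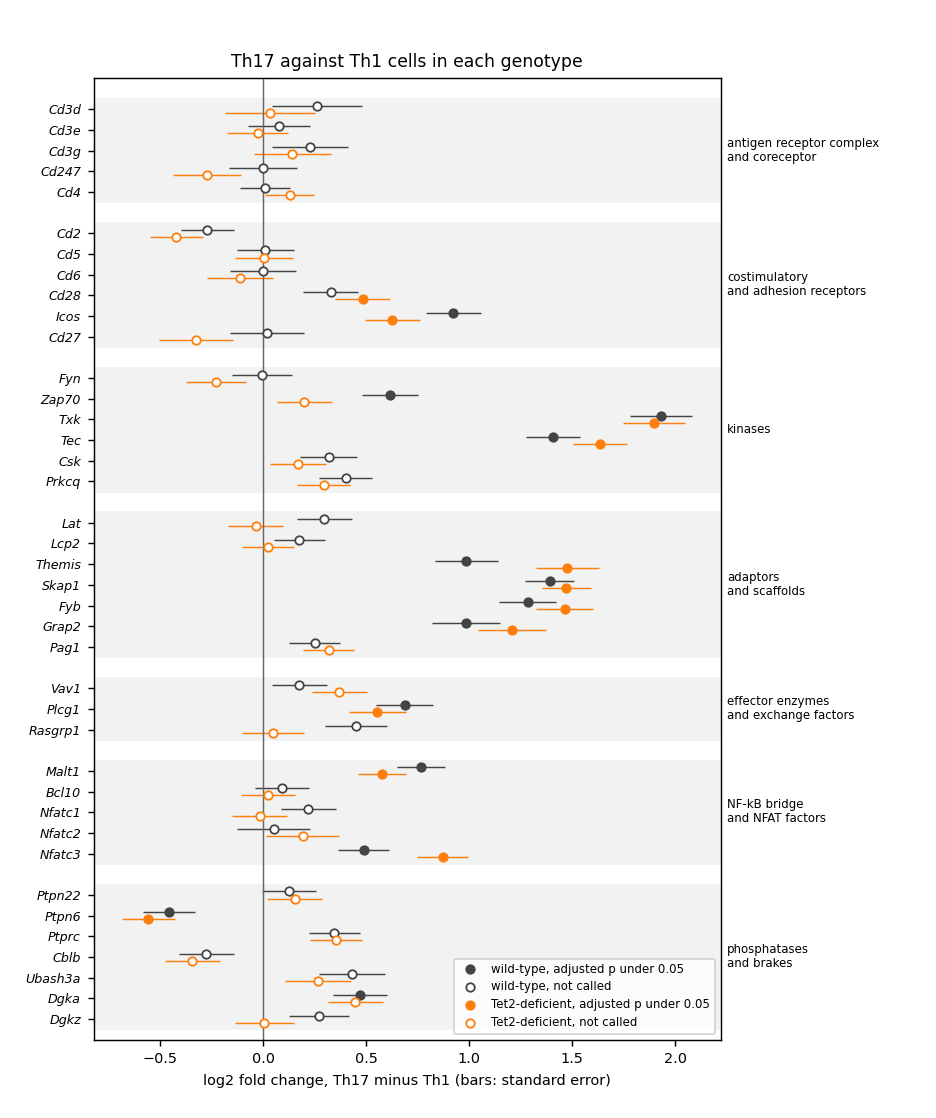
Log2 fold change, Th17 minus Th1 (horizontal axis), of the 39 genes in wild-type (grey, upper of each pair) and Tet2-deficient cells (orange, lower), with bars of 1 standard error; filled points have an adjusted p under 0.05. The largest values lie among the kinases and adaptors, up to 1.93 for Txk. The rows of the CD3 chains, Cd247 and Cd4 run from -0.27 (Cd247, Tet2-deficient) to 0.26 (Cd3d, wild-type).

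The CD3 chains and the coreceptor were called in neither genotype. Cd3d (gene ID 12500) read 8.95 and 8.69 (wild-type) and 9.02 and 9.28 (Tet2-deficient) in Th1 cells, against 9.51 and 8.66 (wild-type) and 9.15 and 9.20 (Tet2-deficient) in Th17 cells. The wild-type Th17 replicates thus spanned both wild-type Th1 arrays, with the widest replicate gap of any module gene. The replicates of Cd3g also lay far apart, at 11.83 and 11.21 on the wild-type Th17 arrays beside 11.14 and 11.45 on the wild-type Th1 arrays. Cd3e, which carries the signalling tail of the epsilon chain, had group means from 11.12 to 11.31, and its log2 fold change in wild-type cells was 0.08 ± 0.15 with a 95% interval of -0.25 to 0.40. Cd247, the zeta chain, had group means of 8.28 and 8.47 in wild-type and Tet2-deficient Th1 and 8.27 and 8.19 in wild-type and Tet2-deficient Th17 cells. The coreceptor gene Cd4 stayed between 10.18 and 10.42 on all 8 arrays. Its subset difference was 0.01 ± 0.12 in wild-type cells, with a 95% interval that runs from 0.84-fold to 1.2-fold. The 95% intervals of the 5 genes reached down to 0.78-fold (Cd247) and up to 1.66-fold (Cd3d) in wild-type cells. In Tet2-deficient cells they reached down to 0.65-fold (Cd247) and up to 1.46-fold (Cd3g). Differences inside those intervals are not excluded with 2 arrays a group.

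Of the costimulatory and adhesion receptors, Icos was called in both genotypes. Icos (gene ID 54167, probe set 10346799), an inducible relative of Cd28, read 10.99 and 11.04 (wild-type) and 11.04 and 10.93 (Tet2-deficient) in Th1 cells, against 11.82 and 12.07 (wild-type) and 11.71 and 11.52 (Tet2-deficient) in Th17 cells. Every Th17 array lay above every Th1 array, and the log2 fold change was 0.92 ± 0.13 in wild-type (limma adjusted p = 0.00107) and 0.63 ± 0.13 in Tet2-deficient cells (adjusted p = 0.0111). Cd28 (gene ID 12487), the main costimulatory receptor of naive cells, was called higher in Th17 cells in the Tet2-deficient comparison only, at 0.48 ± 0.13 (limma adjusted p = 0.0382), beside 0.33 ± 0.13 in wild-type cells (adjusted p = 0.152). Cd28 read 11.66 and 11.95 (wild-type) and 11.53 and 11.67 (Tet2-deficient) in Th1 cells, against 12.18 and 12.09 (wild-type) and 12.09 and 12.08 (Tet2-deficient) in Th17 cells. The difference between these effects, 0.16 ± 0.19, did not pass, so the genotypes are not shown to differ for Cd28. Cd28 and Icos lie close together, with Ctla4 between them. Cd2, an adhesion receptor, had log2 fold changes of -0.27 ± 0.13 and -0.42 ± 0.13, neither passing, with all Th17 arrays at 10.56 or less and all Th1 arrays at 10.70 or more. The neighbouring genes Cd5 and Cd6, both known as modulators of the receptor signal, had wild-type differences of 0.01 ± 0.14 and -0.0014 ± 0.16. Cd27, a costimulatory receptor of the TNF receptor family, had 0.02 ± 0.18 and -0.33 ± 0.18, and its arrays overlapped in both genotypes.

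In wild-type cells the log2 fold changes of the 6 kinases measured ran from -0.01 to 1.93. Txk (gene ID 22165, probe set 10530516), a Tec family kinase, read 6.79 and 6.52 (wild-type) and 6.68 and 6.90 (Tet2-deficient) in Th1 cells, against 8.54 and 8.64 (wild-type) and 8.88 and 8.50 (Tet2-deficient) in Th17 cells. The lowest Th17 array, at 8.50, lay well above the highest Th1 array, at 6.90. The log2 fold change was 1.93 ± 0.15 in wild-type cells, 3.82-fold with a 95% interval of 3.04 to 4.79 (limma adjusted p = 8.12e-06), and 1.90 ± 0.15 in Tet2-deficient cells (adjusted p = 9.29e-06). Tec (gene ID 21682, probe set 10530536), the founder of that family, read 5.90 and 6.14 (wild-type) and 5.69 and 5.99 (Tet2-deficient) in Th1 cells, against 7.39 and 7.45 (wild-type) and 7.42 and 7.53 (Tet2-deficient) in Th17 cells. All 4 Th1 arrays of Tec thus lay under the median gene and all 4 Th17 arrays above it. Tec was 2.65-fold higher in wild-type Th17 cells (1.41 ± 0.13, limma adjusted p = 3.6e-05) and 3.11-fold in Tet2-deficient Th17 cells (1.63 ± 0.13, adjusted p = 9.29e-06).

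Zap70 (gene ID 22637, probe set 10345509), the kinase that docks on the phosphorylated receptor, was called in wild-type cells only. Zap70 read 9.05 and 9.04 (wild-type) and 9.43 and 9.35 (Tet2-deficient) in Th1 cells, against 9.48 and 9.83 (wild-type) and 9.64 and 9.54 (Tet2-deficient) in Th17 cells. The wild-type Th1 arrays stood lowest, under both Tet2-deficient Th1 arrays. Its subset difference was 0.61 ± 0.14 in wild-type (limma adjusted p = 0.0152) and 0.20 ± 0.14 in Tet2-deficient cells (adjusted p = 0.401), and the difference between the effects, -0.41 ± 0.19, did not pass (adjusted p = 0.999, unadjusted p = 0.0503). Csk, which keeps Src family kinases off, had 0.32 ± 0.14 and 0.17 ± 0.14, and Prkcq had 0.40 ± 0.13 and 0.29 ± 0.13, none passing. Fyn, a Src family kinase, had -0.01 ± 0.14 and -0.23 ± 0.14, with wild-type Th17 arrays at 10.36 and 10.22 inside the range of the wild-type Th1 arrays at 10.14 and 10.46.

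Among the 7 adaptors and scaffolds, 4 were called higher in Th17 cells in both genotypes, and the median log2 fold change of the 7 came to 0.99 (wild-type) and 1.21 (Tet2-deficient). Skap1 and Fyb encode partner proteins that tie the receptor to integrin activation. Skap1 (gene ID 78473, probe set 10380672) read 7.41 and 7.33 (wild-type) and 7.44 and 7.31 (Tet2-deficient) in Th1 cells, against 8.77 and 8.76 (wild-type) and 8.95 and 8.74 (Tet2-deficient) in Th17 cells. It was 2.62-fold higher in wild-type Th17 cells (1.39 ± 0.12, limma adjusted p = 1.90e-05) and 2.77-fold in Tet2-deficient Th17 cells (1.47 ± 0.12, adjusted p = 1.14e-05). Fyb (gene ID 23880, probe set 10422760) read 8.45 and 8.61 (wild-type) and 8.42 and 8.74 (Tet2-deficient) in Th1 cells, against 9.84 and 9.79 (wild-type) and 10.15 and 9.94 (Tet2-deficient) in Th17 cells. Both partners were thus called, Fyb at 1.28 ± 0.14 (limma adjusted p = 0.000115) in wild-type and 1.46 ± 0.14 (adjusted p = 3.79e-05) in Tet2-deficient cells.

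Themis and Grap2 were the other adaptors called. Themis (gene ID 210757, probe set 10362350), an adaptor known for its role in thymocyte selection, read 8.64 and 8.62 (wild-type) and 7.69 and 8.09 (Tet2-deficient) in Th1 cells, against 9.53 and 9.71 (wild-type) and 9.51 and 9.22 (Tet2-deficient) in Th17 cells. The Tet2-deficient Th1 arrays were lowest, the wild-type Th1 arrays came next, and all Th17 arrays stood above them, with 9.53 the lowest wild-type and 9.51 the highest Tet2-deficient Th17 value. The subset difference was 0.99 ± 0.15 in wild-type (1.98-fold, limma adjusted p = 0.00176) and 1.48 ± 0.15 in Tet2-deficient cells (2.78-fold, adjusted p = 7.25e-05). Grap2 (gene ID 17444, probe set 10425410), which couples Lat to the protein of Lcp2, read 9.17 and 9.10 (wild-type) and 8.68 and 8.89 (Tet2-deficient) in Th1 cells, against 9.91 and 10.33 (wild-type) and 10.18 and 9.81 (Tet2-deficient) in Th17 cells. It differed by 0.99 ± 0.16 in wild-type (limma adjusted p = 0.00293) and 1.21 ± 0.16 in Tet2-deficient cells (adjusted p = 0.000583). The scaffolds that Grap2 joins were not called. Lat had 0.30 ± 0.13 and -0.04 ± 0.13, and Lcp2 0.18 ± 0.13 and 0.02 ± 0.13, none passing. Pag1, the membrane scaffold of Csk, had 0.25 ± 0.12 and 0.32 ± 0.12 at signals near or under the median gene, none passing.

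Of the enzymes behind the scaffolds, Plcg1 (gene ID 18803, probe set 10478219) was called in both genotypes. Plcg1 read 7.96 and 8.28 (wild-type) and 8.34 and 8.34 (Tet2-deficient) in Th1 cells, against 8.70 and 8.92 (wild-type) and 8.98 and 8.80 (Tet2-deficient) in Th17 cells. Every Th17 array lay above every Th1 array, with log2 fold changes of 0.69 ± 0.14 (limma adjusted p = 0.00982) and 0.55 ± 0.14 (adjusted p = 0.0255). Rasgrp1, which turns diacylglycerol into Ras activation, had 0.45 ± 0.15 and 0.05 ± 0.15, and Vav1, an exchange factor for Rac, had 0.17 ± 0.13 and 0.37 ± 0.13, none passing. Malt1 (gene ID 240354, probe set 10456296), the protease of the NF-kB bridge, read 10.46 and 10.49 (wild-type) and 10.53 and 10.55 (Tet2-deficient) in Th1 cells, against 11.22 and 11.26 (wild-type) and 11.17 and 11.07 (Tet2-deficient) in Th17 cells. Its difference was 0.77 ± 0.12 in wild-type (limma adjusted p = 0.00154) and 0.58 ± 0.12 in Tet2-deficient cells (adjusted p = 0.00805). Its partner Bcl10 had 0.09 ± 0.13 and 0.02 ± 0.13, with overlapping arrays in both genotypes. Nfatc3 (gene ID 18021, probe set 10574962) was the only one of the 3 NFAT genes measured here that was called. Nfatc3 read 9.23 and 9.35 (wild-type) and 9.27 and 9.33 (Tet2-deficient) in Th1 cells, against 9.77 and 9.79 (wild-type) and 10.28 and 10.06 (Tet2-deficient) in Th17 cells. The 2 Tet2-deficient Th17 arrays stood above all others, and the subset difference was 0.49 ± 0.12 in wild-type (limma adjusted p = 0.0308) and 0.87 ± 0.12 in Tet2-deficient cells (adjusted p = 0.000813). Nfatc1 had 0.22 ± 0.13 and -0.02 ± 0.13 and Nfatc2 0.05 ± 0.18 and 0.19 ± 0.18, with no call. Differences between the NFAT genes themselves were not tested.

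Among the phosphatases and other brakes, Ptpn6 (gene ID 15170, probe set 10547769) was the single module gene called lower in Th17 cells. It encodes a tyrosine phosphatase that damps receptor signals, and read 9.31 and 9.37 (wild-type) and 9.60 and 9.55 (Tet2-deficient) in Th1 cells, against 8.73 and 9.03 (wild-type) and 9.05 and 8.98 (Tet2-deficient) in Th17 cells. Every Th17 array lay under every Th1 array, with log2 fold changes of -0.46 ± 0.13 (limma adjusted p = 0.0458) and -0.56 ± 0.13 (adjusted p = 0.0159). Dgka (gene ID 13139, probe set 10373542), which removes diacylglycerol, was called higher in wild-type Th17 cells at 0.47 ± 0.13 (limma adjusted p = 0.0471) and had 0.45 ± 0.13 in Tet2-deficient cells (adjusted p = 0.0504). Dgka read 11.36 and 11.67 (wild-type) and 11.76 and 11.69 (Tet2-deficient) in Th1 cells, against 12.00 and 11.97 (wild-type) and 12.17 and 12.17 (Tet2-deficient) in Th17 cells. Both genotypes thus gave nearly the same value for Dgka, on either side of the threshold. Its relative Dgkz had 0.27 ± 0.14 and 0.01 ± 0.14. The ubiquitin ligase gene Cblb had -0.28 ± 0.13 and -0.35 ± 0.13, in the direction of Ptpn6, and the phosphatase gene Ptprc (CD45) had 0.35 ± 0.13 in both genotypes. Ubash3a (0.43 ± 0.16 and 0.27 ± 0.16) and Ptpn22 (0.12 ± 0.13 and 0.15 ± 0.13), which also restrain the signal, did not pass.

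Of the calls in wild-type cells, those of Txk, Tec, Skap1, Fyb and Themis held in all 19 alternative settings tried, 5 of 13. In Tet2-deficient cells those of the same 5 genes and of Grap2 and Nfatc3 held in all 19, 7 of 12. The calls fell to 8 without wild-type Th1 replicate 1 in wild-type cells, and in Tet2-deficient cells to 7 without Tet2-deficient Th17 replicate 1. With only replicate 1 of each Th17 group, chosen after seeing the data because replicate 2 of both held more RNA with Xist, 6 genes were called in wild-type cells (Txk, Tec, Themis, Skap1, Fyb and Grap2). In Tet2-deficient cells 7 were called. In this setting the Th17 groups have 1 array each, so the spread comes from the Th1 groups alone and the Th17 arrays are assumed to vary like them. Nor does it remove the difference in sex, since Tet2-deficient Th17 replicate 1 lay at 14.8% on the Xist scale. With the Xist signal as a covariate the Tet2-deficient count was also 7, and with all 35556 probe sets in the adjustment the wild-type count was 7. The calls of Ptpn6 and Dgka in wild-type cells ended in 13 and 12 of the 19 settings, and that of Cd28 in Tet2-deficient cells in 10. In wild-type cells those of Nfatc3, Zap70 and Plcg1 ended in 8, 6 and 4, and those of Grap2, Icos and Malt1 in 1 each. In Tet2-deficient cells those of Plcg1, Ptpn6, Icos and Malt1 ended in 8, 7, 5 and 4.

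The rest of the pathway was read from 6 lists of other genes, chosen by role. Calcium genes had 6 of 19 called higher and 1 lower in wild-type Th17 against Th1 cells, and 6 higher and 3 lower in Tet2-deficient cells. The largest in wild-type cells were the channel subunit gene Orai2 (0.76), the calcium sensor gene Stim1 (0.73) and the calcineurin gene Ppp3cc (0.67). The kinase gene Camk4 was lower (-0.83), and in Tet2-deficient cells Orai1 was lower by the largest amount (-0.79). Ras and MAP kinase genes had 5 of 17 called higher and 1 lower in wild-type cells, led by Rasa1 (1.27) and Rasa3 (0.95), which encode proteins that switch Ras off. Map2k3, a kinase above p38, was lower (-0.58). In Tet2-deficient cells 6 were higher, led by Map2k6 (1.17), and 2 lower, Map2k3 (-0.99) and Spry1 (-0.65). PI3K genes had 5 of 14 called higher and 0 lower in each genotype, among them Rictor (0.74 and 0.90), Pik3ip1 (0.58 and 0.96) and Foxo1 (0.71 and 0.56). Actin and adhesion genes had 5 of 19 higher and 1 lower in wild-type cells, with Evl (0.84), Hcls1 (0.81) and Dock8 (0.78) higher and Wipf1 lower (-0.79). In Tet2-deficient cells 6 were higher and 2 lower. The NF-kB branch had 1 of 18 higher and 2 lower in wild-type cells, with Nfkb2 (-0.76) and Nfkbie (-0.54) lower and Tab2 (0.44) higher, and 2 higher and 3 lower in Tet2-deficient cells. The other proximal partners had 2 of 29 higher, Map4k1 (0.46) and Rasgrp4 (0.41), and 1 lower, Vav2 (-0.45), in wild-type cells, and 3 higher and 2 lower in Tet2-deficient cells. All of these lists are to be read beside the 8.4% and 10.1% of all genes called, and none was tested as a set. The module's own shares were 33.3% in wild-type and 30.8% in Tet2-deficient cells. Those of the calcium (36.8% and 47.4%), Ras and MAP kinase (35.3% and 47.1%) and PI3K genes (35.7% in each) were higher. Actin and adhesion genes had 31.6% and 42.1%, the NF-kB branch 16.7% and 27.8%, and the other proximal partners 10.3% and 17.2%. No gene of these lists was called between genotypes in either subset.

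**Figure D3:**
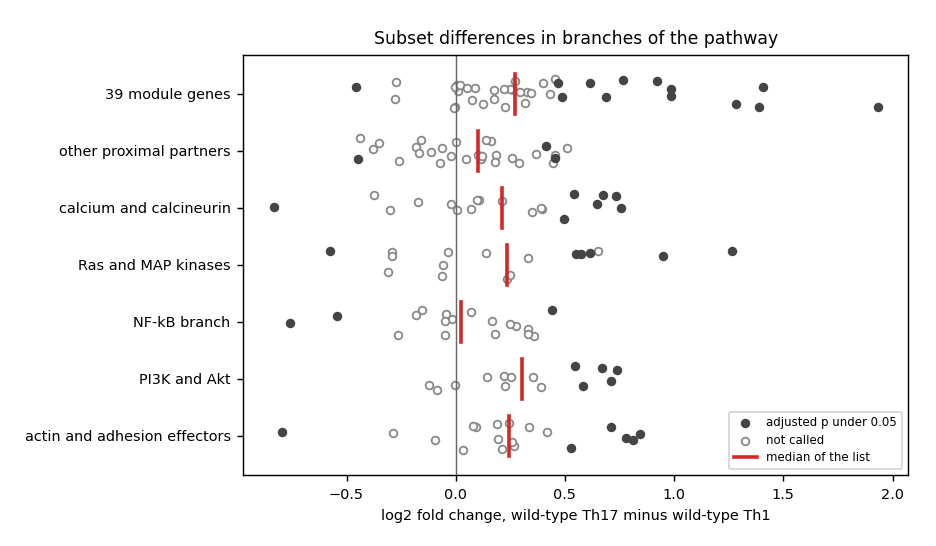
Log2 fold change, wild-type Th17 minus wild-type Th1 (horizontal axis), of each measured gene of the module and of 6 further lists (rows); filled points have an adjusted p under 0.05 and the red bar is the median of a list. The module reaches 1.93 and has a median of 0.27. Medians of the other lists run from 0.03 (NF-kB branch) to 0.30 (PI3K and Akt), with 0.10 for the other proximal partners. Vertical scatter within a row carries no meaning.

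Between genotypes, none of the 39 genes passed. In Th1 cells limma called 0 of the 39, beside 0.00502% of all genes, which is the single gene Ifng, lower at -1.39 (adjusted p = 0.00438). None of the 19938 genes was called there with only the 4 arrays compared, or with all 35556 probe sets in the adjustment. An unadjusted p under 0.05 was reached by 7 of the 39, beside 6.05% of the whole array. Arrays of both genotypes did not overlap for 19 of the 39, beside 33.3% of all genes. Of the 39 log2 fold changes, Tet2-deficient minus wild-type, 27 lay above 0, with a median of 0.12 beside 0.01 over all genes, where 54.1% lay above 0, and the median of the module was 0.06 without wild-type Th1 replicate 1. Themis had the largest, at -0.74 ± 0.15 with a 95% interval of -1.08 to -0.41 (limma adjusted p = 0.549, unadjusted p = 0.000363). Both Tet2-deficient Th1 arrays of Themis lay below both wild-type ones, and with an array left out the value ranged from -0.94 to -0.54. Also lower were Grap2 (-0.35 ± 0.16), Pag1 (-0.28 ± 0.12) and Cd28 (-0.21 ± 0.13), with limma adjusted p from 0.821 to 0.855. On the other side were Dgkz (0.38 ± 0.14), Zap70 (0.35 ± 0.14), Cd27 (0.43 ± 0.18) and Ubash3a (0.37 ± 0.16), with adjusted p from 0.797 to 0.821. Dgkz was at 8.41 and 8.49 on the wild-type Th1 arrays and at 8.84 and 8.82 on the Tet2-deficient ones, and the groups did not overlap for any of these 4. Of Cd27, however, the Tet2-deficient arrays stood 0.56 apart, at 8.40 and 8.96, and its difference was 0.15 without replicate 2 and 0.71 without replicate 1 of that group. Ubash3a ranged from 0.20 to 0.54 and Cd28 from -0.35 to -0.07 with an array left out. The probe sets of Dgkz disagreed, and the mean of both gave 0.08.

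In Th17 cells limma again called 0 of the 39, beside 0% of all genes, and for 3 the unadjusted p was under 0.05, beside 4.13% of the whole array. The groups did not overlap for 12 of the 39, beside 32.9% of all genes. The median was 0.06, with 24 of 39 above 0, and it fell to -0.01 without wild-type Th17 replicate 1 and to -0.03 without Tet2-deficient Th17 replicate 1. Nfatc3 had the smallest p, at 0.39 ± 0.12 (limma adjusted p = 0.933), and Rasgrp1 and Icos followed at -0.40 ± 0.15 and -0.33 ± 0.13. Rasgrp1 was at 10.16 and 10.46 on the wild-type Th17 arrays and lower, at 10.04 and 9.78, on the Tet2-deficient ones. Fyb (0.23), Ubash3a (0.20), Dgka (0.19), Cd2 (-0.22) and Pag1 (-0.21) had smaller differences, none passing. For Themis the Th17 value was -0.25 ± 0.15, and the difference of its effects, Th17 minus Th1, was 0.49 ± 0.22 (limma adjusted p = 0.999). Limma called 0 of the 39 genes for that difference, with an unadjusted p under 0.05 for 2, Themis and Nfatc3, beside 4.48% of all genes. Other genes with the smallest p in that contrast were Tec (0.23) and Vav1 (0.20) above 0, and Zap70 (-0.41), Rasgrp1 (-0.41), Lat (-0.33) and Icos (-0.30) below 0. For the mean of both effects limma also called 0, with 5 at an unadjusted p under 0.05 (5.48% of all genes), and with Themis at -0.50 ± 0.11 (adjusted p = 0.503), Pag1 at -0.25, Grap2 at -0.24 and Icos at -0.18, and with Ubash3a at 0.29, Dgkz at 0.25, Nfatc3 at 0.20 and Dgka at 0.20.

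**Figure D4:**
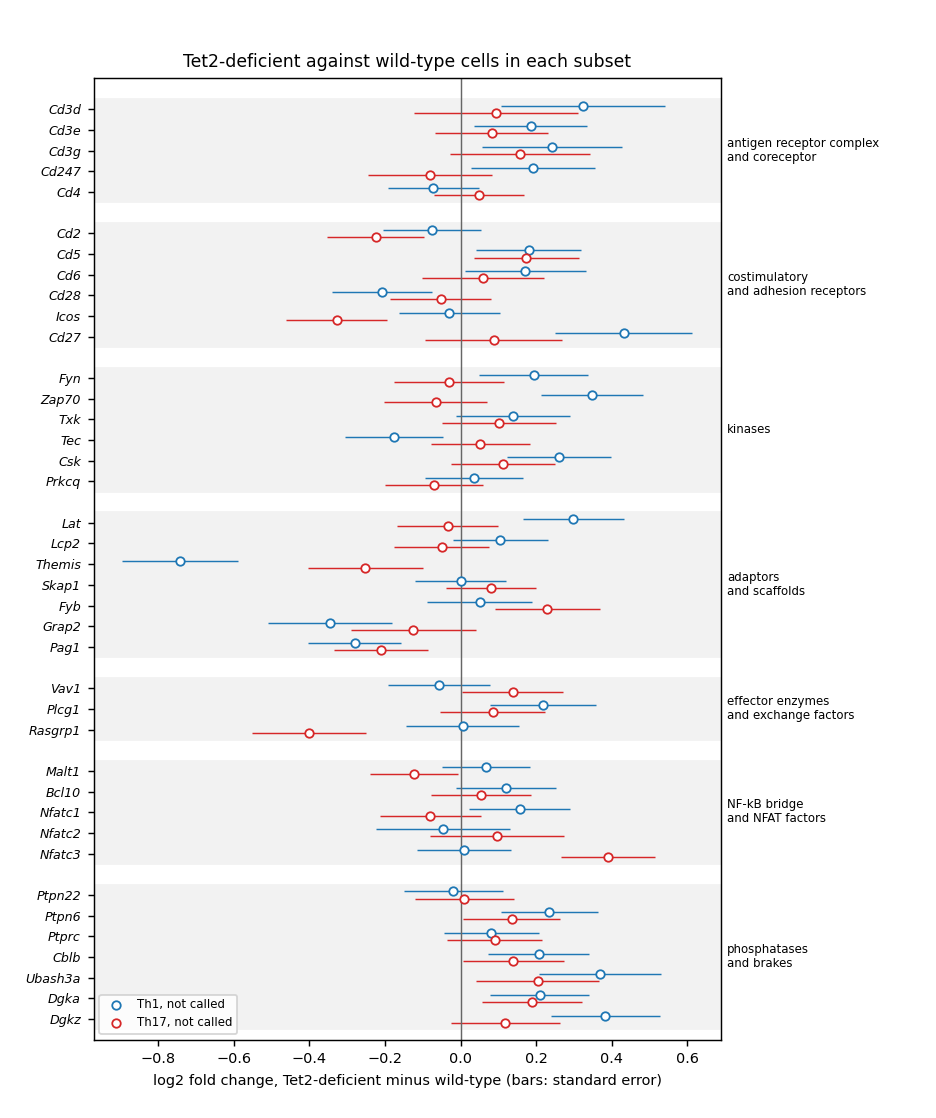
Log2 fold change, Tet2-deficient minus wild-type (horizontal axis), of the 39 genes in Th1 (blue, upper of each pair) and Th17 cells (red, lower), with bars of 1 standard error; all points are open because none passed. Themis in Th1 cells, at -0.74, lies farthest from 0.

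The replicates themselves differed along the module, most in 1 direction in Tet2-deficient Th17 cells. On Tet2-deficient Th17 replicate 2, the array with the highest Xist signal, 36 of the 39 genes read lower than on replicate 1, with a median gap of -0.19. Over all genes the median gap between these arrays was -0.02, and 44.4% read higher on replicate 2. The exceptions were Tec, Cd3d and Dgka, at gaps of 0.10, 0.05 and 0.0032. In wild-type Th17 cells replicate 2 read higher for 28 of the 39, with a median gap of 0.10 beside -0.01 over all genes, but Cd3d and Cd3g stood 0.85 and 0.62 lower there. In Th1 cells the median gaps were 0.08 in wild-type and -0.04 in Tet2-deficient cells. With the Xist signal as a covariate the median genotype difference of the module in Th17 cells was 0.11, with 0 of the 39 called by limma. With only replicate 1 of each Th17 group, 1 array against 1, the median was 0.17, Rasgrp1 was at -0.12 and Icos at -0.10.

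**Figure D5:**
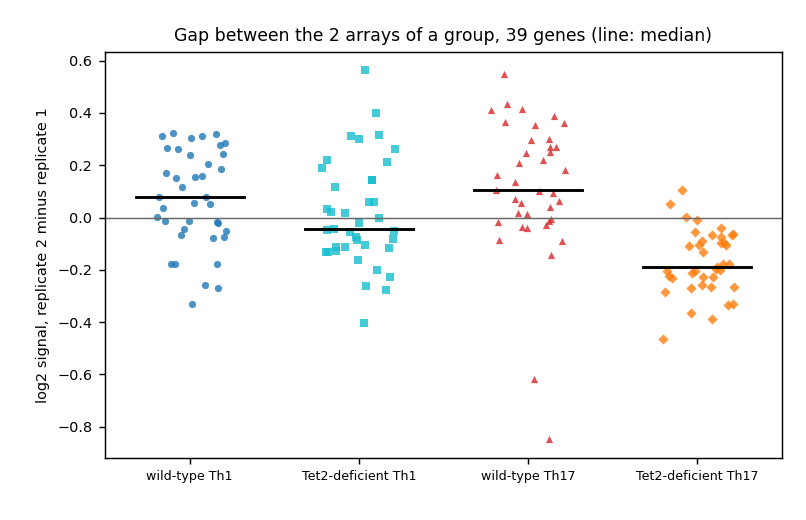
Log2 signal of replicate 2 minus replicate 1 (vertical axis) for the 39 genes in each of the 4 groups (horizontal axis), with 1 point per gene and a line at the median. In Tet2-deficient Th17 cells 36 of 39 points lie below 0, and Cd3d and Cd3g are the lowest points of wild-type Th17 cells. Horizontal scatter within a group carries no meaning.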

How the data were processed

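The deposited value table holds 1 log2 signal per probe set and array. GCOS, RMA and Affymetrix Expression Console are the tools listed, per the submitters' processing notes, and their versions, order and options are not given in the sources used here. RMA as usually run normalizes arrays to one another, and values were used as they stood. Of 35556 probe sets, 21789 carried 1 symbol in the platform annotation, 1621 several and 12146 none. The probe set with the highest mean was kept for each gene, which left 19938 genes, and no filter on signal was applied. Arrays have no counting depth, and their number limits the precision.

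The tests used limma 3.58.1 (R 4.3.3; 4 group means, contrasts, eBayes with an intensity trend, 4 residual and 8.32 prior degrees of freedom), two-sided, with Benjamini-Hochberg adjustment over all 19938 genes in each of 6 contrasts and a call at 0.05. No replicate term was used. The method was checked on simulated data. Where nothing says that replicates came from separate animals, p-values measure only the spread between these arrays.

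The module genes and lists were chosen with earlier results of these data known. All 39 genes are named. Between subsets p was given for genes called in either genotype, and between genotypes for up to 4 genes with the smallest p in each direction. Of the other lists up to 3 called genes per direction were named. Th1 and Th17 comparisons within a genotype share arrays with the genotype comparisons. Upstream sequences are from a RefSeq promoter set, assembly GRCm38.p6, with the most upstream start that it holds for each gene. Alternatives were a replicate block, only the arrays compared, a filter at the median signal, the mean of probe sets, all probe sets, repeated quantile normalization, median centring, eBayes without trend and robust, a Xist covariate, each array left out and, added after seeing the data, only replicate 1 of the Th17 groups. Some listed genes were not analysed here.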

Additional observations from a re-analysis of the deposited data

How the results depend on the processing

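The called genes between subsets, and the genes with the smallest p between genotypes, kept their direction under every alternative run but for Ubash3a in Th17 cells, which was 0.20 with all arrays and ranged from -0.0021 (without wild-type Th17 replicate 1) to 0.41 with an array left out. No module gene was called between genotypes under any alternative. In wild-type cells the 13 calls between subsets became 7 with all 35556 probe sets in the adjustment and 6 with only replicate 1 of the Th17 groups, where the Th1 groups alone supply the spread. With an array left out they ranged from 8 to 11. In Tet2-deficient cells the 12 calls became 7 with the Xist covariate and 7 with only replicate 1 of the Th17 groups, and ranged from 7 to 13 with an array left out. The cause was not tested. With the replicate block 10 genes were called in wild-type and 11 in Tet2-deficient cells. The labels do not say that replicate numbers pair arrays across groups. The correlation of same-numbered deviations lay between -0.19 and 0.06 over the pairs of groups. With 2 arrays a group each pair of groups gives 1 such value, which cannot exclude a pairing. Centring each array moved the share of higher values among all genes called in Tet2-deficient cells from 62.5% to 72.6%, and repeated quantile normalization moved it to 55.5%. In wild-type cells the share was 59.1%, and these settings gave 68.4% and 51.7%. With 2 arrays a group, close log2 differences fell on either side of the threshold. Dgka was called at 0.47 in wild-type but not at 0.45 in Tet2-deficient cells, and Nfatc3 was called at 0.49 in wild-type cells.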
